A study of Mus musculus with 27 samples.

Results

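The nuclear genes for subunits of the mitochondrial respiratory chain were followed in RNA-seq counts of 27 mouse brain libraries. They were chosen by symbol: every protein-coding gene of the Ndufa, Ndufb, Ndufc, Ndufs, Ndufv and Ndufab series, the Sdh genes a to d, the Uqcr series, Cyc1, the Cox4 to Cox8 series and the Atp5 series, with pseudogenes left out. This gave 86 identifiers, which stand for 85 genes, of the 52636 in the count tables. Complex I held 37 of them, complex II 4, complex III 9, complex IV 19 and complex V 17. Ndufa4 was counted with complex IV, in which its protein is now placed. The same 78 members reached 1 CPM, a count scaled by sequencing depth, in all libraries of both regions and were tested, and the other 8 are described with the isoforms below. Each member's log2 fold change was fitted together with all other expressed genes, and a member was called where its adjusted p was under 0.05.

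The libraries came from frontal cortex and striatum of male and female mice on the 129S1 background, about 2.5 months old. Mice labelled Igf2enh-/- were homozygous for the loss of a 4.9 kb enhancer between H19 and Igf2. The deletion was made by gene targeting in embryonic stem cells and is present in every cell of the animal, and 1 loxP site was left after an Hprt-CRE female was used to remove the selection cassette. Frontal cortex gave 6 wild-type and 6 Igf2enh-/- libraries, with 3 females and 3 males each. Striatum gave 7 wild-type libraries (3 females, 4 males) and 8 Igf2enh-/- libraries (4 females, 4 males). The labels thus hold 13 wild-type and 14 Igf2enh-/- libraries, whereas the design text of the series gives these numbers the other way round. Total counts per library ran from 23686945 to 33926904, so that 1 CPM stood for 23.7 to 33.9 counts. The labels do not say which cortical and striatal libraries came from 1 mouse, and all were treated as independent. Igf2 itself was called higher in Igf2enh-/- frontal cortex, by 0.77 ± 0.13 (log2 ± SE, adjusted p = 0.0285, edgeR). Its striatal difference of 0.89 ± 0.33 was not called by this test. The paper reported significantly higher Igf2 in both regions by a Wilcoxon test.

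The respiratory chain sits in the inner mitochondrial membrane and turns the energy of NADH and succinate into ATP. Complex I accepts electrons from NADH and complex II from succinate, both pass them to coenzyme Q, complex III hands them on to cytochrome c, and complex IV reduces oxygen. Complexes I, III and IV pump protons, and complex V, the ATP synthase, uses their return to make ATP. Neurons draw most of their ATP from this chain. A few subunits are encoded by mitochondrial DNA, and all the others by nuclear genes spread over the chromosomes, so the nuclear genes have to be kept in proportion to each other and to the mitochondrial ones. Nuclear respiratory factor 1 (NRF1), the ETS factor GABP and YY1 are known to bind promoters of many of these genes.

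Promoter sequence was examined as a feature that the choice by symbol did not use. RefSeq (GRCm38.p6) held a promoter, from 250 bases before to 50 after the start, for 69 of the 85 genes. The NRF1 letters, GCGCA followed by any 1 base and then GCGC, were searched on both strands and were in 17 of these 69 (24.6%), against 7.17% of all 17491 genes with a promoter. The YY1 letters AAGATGGCG were in 10.1% of members and 2.14% of all genes. The ETS letters CCGGAAGT were in 7.2% and 5.69%. A match describes these letters in this window and shows no binding. The NRF1 match is printed below for the member of highest level per length in complexes I, II, IV and V in which both the letters and the 20 bases on either side lay before the start, and where a promoter held several such matches, the one farthest from the start is shown. The letters are in capitals and the flanking bases in lower case, in the direction of the gene.
Ndufa8: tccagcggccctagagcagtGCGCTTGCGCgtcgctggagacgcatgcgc
Sdha: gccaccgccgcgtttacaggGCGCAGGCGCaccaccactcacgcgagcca
Cox6a1: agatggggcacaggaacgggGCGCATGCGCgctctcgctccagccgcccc
Atp5k: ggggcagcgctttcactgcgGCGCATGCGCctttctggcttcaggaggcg
The Ndufa8 stretch is chr2:36049339-36049388, that of Sdha chr13:74350309-74350358, that of Cox6a1 chr5:115349091-115349140 and that of Atp5k chr5:108434420-108434469, all in GRCm38.p6 and on the minus strand. The letters start 30, 98, 162 and 50 bases before the annotated start, in that order. By complex, they were in 7 of 32 promoters of complex I, 2 of 3 of complex II, 1 of 5 of complex III, 1 of 14 of complex IV and 6 of 15 of complex V.

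All 5 complexes were strongly expressed in both regions, and their summed levels varied little. Members of complex I summed to 2107 ± 47.1 CPM in wild-type frontal cortex (SD, n = 6) and 2200 ± 117 in wild-type striatum (n = 7). The complex V genes summed to 2902 ± 39.7 and 2981 ± 180 CPM, and complex IV genes to 1580 ± 68.0 and 1581 ± 109 CPM. Complex III, with 852.6 ± 13.0 and 822.1 ± 43.0 CPM, and complex II, with 577.0 ± 5.34 and 564.3 ± 21.5 CPM, were slightly lower in striatum. The ranges of wild-type libraries of the 2 regions overlapped for every complex. In tissue RNA, fewer cells of a type and less RNA per cell cannot be told apart.

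**Figure D1:**
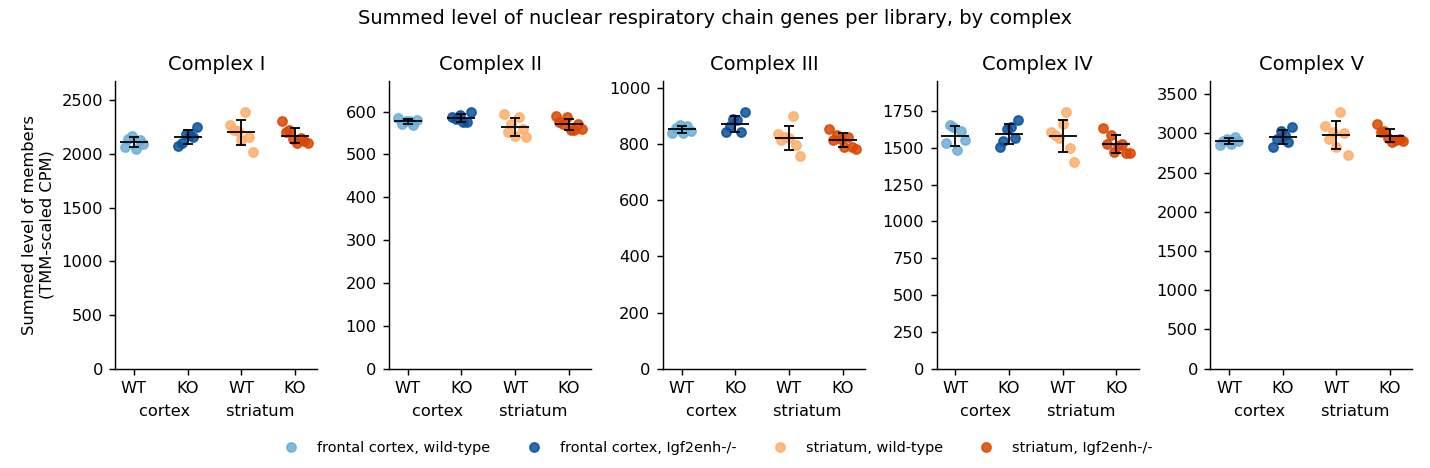
Summed level of the members of each complex in every library (points; y axis in TMM-scaled CPM, starting at 0), by region and genotype (WT, wild-type; KO, Igf2enh-/-); bars are mean and SD. Within each complex the groups overlap, and the widest spread is that of wild-type striatum.

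Per length, members of 1 complex were far from even. Levels per length are means over the libraries of a region in CPM per kb of all annotated exons of the gene, so that a rarely used long exon lowers them. In complex IV, Cox8a reached 473 CPM per kb in frontal cortex and 395 in striatum, and Cox4i1, the large regulatory subunit, 434 and 443. In complex V the catalytic F1 subunits alpha (Atp5a1) and beta (Atp5b) led, with 214 and 207 CPM per kb in cortex and 223 and 212 in striatum. These F1 subunits are used in 3 copies each per enzyme. Ndufb9, an accessory subunit with a LYR motif, led complex I with 179 and 183 CPM per kb. Uqcrc1, a core protein, led complex III in cortex with 111, and the small subunit Uqcr10 led it in striatum with 106. Sdha, the flavoprotein that oxidises succinate, led complex II with 87.5 and 82.9. At the low end stood Ndufab1, the mitochondrial acyl carrier protein (3.80 and 4.20), Sdhc (25.8 and 29.0), Uqcrq (32.4 and 33.0) and Atp5g1 (11.1 and 10.5). Ndufs5 was lower still, at 1.06 and 1.32 CPM per kb. This order depends on exon length. Per kb, Ndufb4 was at 6.59 and 6.01, above Ndufab1. Not divided by length, Ndufab1 ran from 24.4 to 31.8 CPM over all libraries and Ndufb4 from 5.47 to 8.66 CPM.

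Where a subunit has a general and a tissue isoform, the general form dominated in both regions. Cox6a1 was at 210 and 215 CPM per kb in cortex and striatum, and the heart and muscle form Cox6a2, the only such isoform tested, at 2.75 and 3.00. Cox4i2, best known from lung, was at 1.54 and 1.70 CPM per kb against 434 and 443 for Cox4i1. The testis form Cox6b2 was at 2.01 and 2.52 against 224 and 221 for Cox6b1. Cox7a1, of heart and muscle, was at 2.35 and 1.54, while Cox7a2 was at 153 and 142 and Cox7a2l, a supercomplex factor, at 34.9 and 35.4. Cox7b2 was at 0.673 and 1.06 against 79.6 and 73.5 for Cox7b. All of these low isoforms are muscle, lung or testis forms. Cox8b, of heart and muscle, had at most 9 counts in 26 of the libraries and 33 counts in striatal Igf2enh-/- library 15, which also held the most choroid plexus RNA. Cox8c had 0 counts in every library, and 0 counts in 1 library taken alone allows up to 3. Of the 3 genes for the identical subunit c, Atp5g3 was at 81.7 and 83.7 CPM per kb, Atp5g2 at 13.7 and 14.8 and Atp5g1 at 11.1 and 10.5. Not divided by length, the last 2 stood in the reverse order. Atp5g1 ran from 47.5 to 60.3 CPM over all libraries and Atp5g2 from 7.60 to 11.0 CPM.

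Some members share sequence with processed copies, and their values are uncertain. Windows of 75 bases, the read length, were cut from each member's longest annotated protein-coding transcript and matched to the genome (NCBIM37). For 53 of the 86 identifiers no window had a second exact match, and for 14 more than 20% of windows did. Atp5g2 had a second match in 100% of windows, Atp5l in 85.6%, Atp5md in 69.7%, Cox5b in 50.6% and Ndufs5 in 43.6%. The other 9 were Cox7a2l, Uqcrb, Atp5h, Ndufb4, Ndufs3, Cox7c, Uqcr11, Atp5g1 and Ndufa12, with 22.0% to 43.9%. Ndufs5 held 15 to 56 counts per library. The second identifier of Ndufb8 overlaps the first and had 0 counts. How reads with several matches were counted is not given in the sources used here.

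Between regions, 48 of the 78 members were called, 26 higher and 22 lower in striatum. This share of 61.5% stood below the 77.7% of all 13414 genes tested that were called (39.4% higher and 38.3% lower, edgeR quasi-likelihood test). That order depends on the expression filter. With no filter beyond 1 count, 53.6% of members were called against 41.8% of all genes, and with filterByExpr 61.4% against 74.4%. The differences were small: the median over members was 0.03 on the log2 scale, against 0.01 over all genes, and the median size without sign was 0.10 against 0.24. Only 7 members differed by more than 0.25. The split of calls into higher and lower rests on scaling, since with total counts in place of TMM factors 31 were higher and 16 lower.

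**Figure D2:**
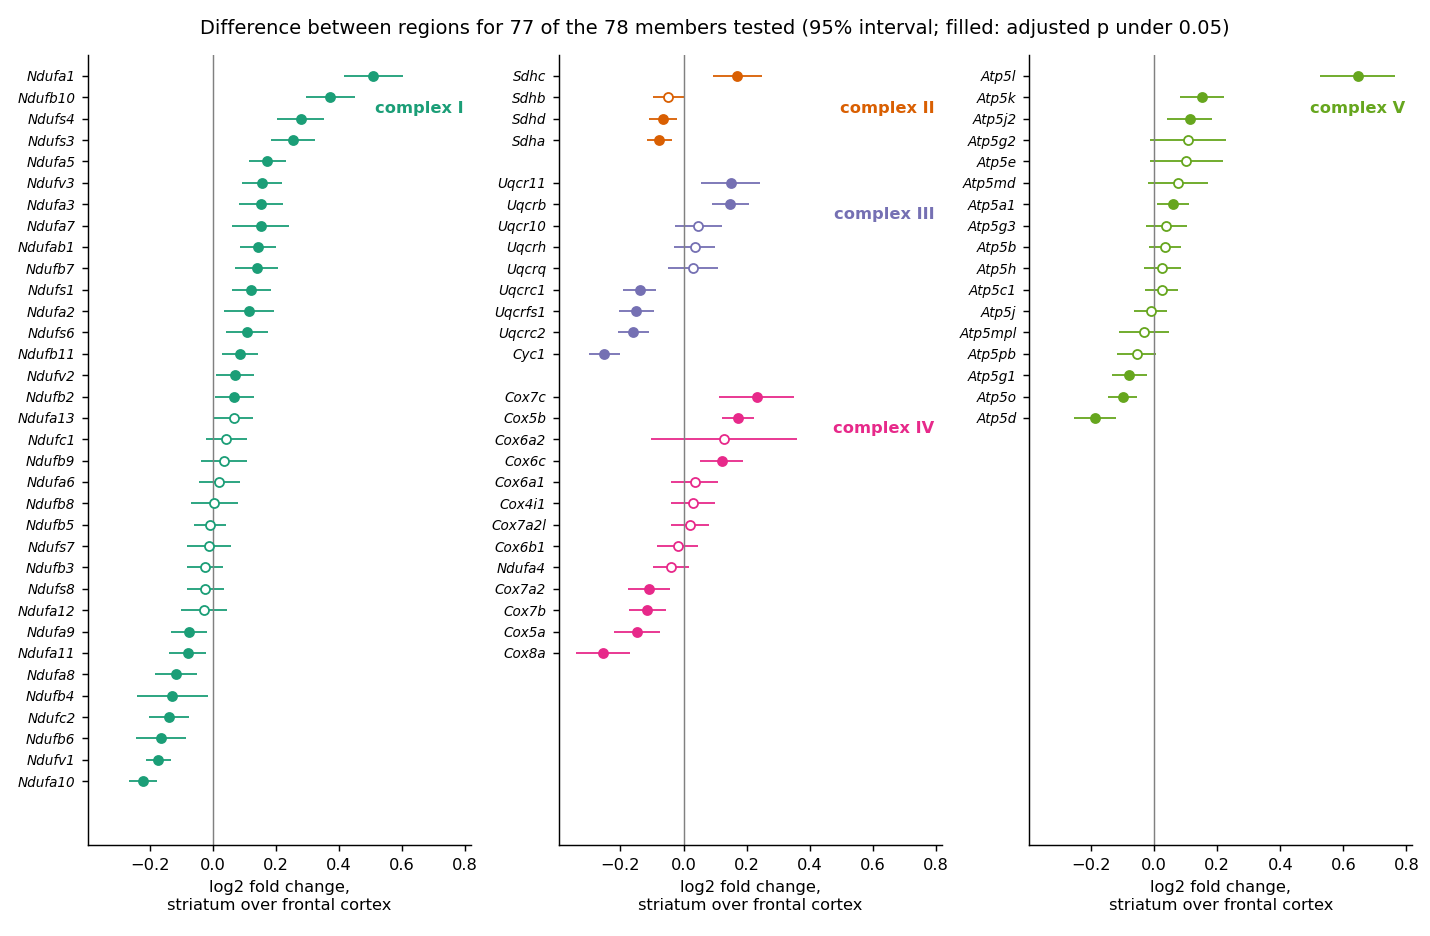
Log2 fold change of striatum over frontal cortex (x axis, 95% interval) for 77 of the 78 members tested, grouped by complex; filled symbols have an adjusted p under 0.05. Each complex holds members on both sides of 0, with Ndufa1 and Atp5l farthest to the right.

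Complex I had the most members and the most calls, 16 higher and 9 lower in striatum among 35. Its share called, 71.4%, was below the 77.7% of all genes. Ndufa1, a small X-linked subunit of the membrane arm needed for assembly, ran from 30.4 to 37.8 CPM in frontal cortex (median 35.2, n = 12) and from 41.6 to 56.6 CPM in striatum (median 50.7, n = 15). No striatal library fell into the cortical range. The difference was 0.51 ± 0.05 (adjusted p = 1.06e-10, edgeR). Ndufb10, another accessory subunit of the membrane arm, ran from 62.6 to 72.7 CPM in cortex (median 68.3) and from 73.2 to 98.2 in striatum (median 89.2), again without overlap, with a difference of 0.37 ± 0.04 (adjusted p = 9.4e-10, edgeR). At the other end, Ndufa10, a membrane arm subunit with a kinase-like fold, ran from 116 to 128 CPM in cortex (median 121) and from 98.4 to 110 in striatum (median 104), a difference of -0.22 ± 0.02. Ndufv1, which carries the flavin that takes electrons from NADH, ran from 122 to 130 CPM in cortex (median 127) and from 107 to 117 in striatum (median 114), a difference of -0.17 ± 0.02. The libraries of both genes were separate between regions. Among the 7 nuclear core subunits of the matrix arm, 3 rose, 2 fell and 2 were not called. Their range was -0.17 to 0.25. Of the 28 accessory subunits 13 rose, 7 fell and 8 were not called.

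Complex II moved little, although 75% of its 4 members were called, against 77.7% of all genes. Its flavoprotein Sdha ran from 327 to 349 CPM in cortex and from 301 to 348 in striatum (-0.08 ± 0.02, adjusted p = 0.00061, edgeR), and the membrane anchor Sdhd from 57.3 to 63.9 and 53.3 to 61.6 (-0.06 ± 0.02, adjusted p = 0.00833, edgeR). The other anchor, Sdhc, was called the other way, by 0.17 ± 0.04, with 73.7 to 91.9 CPM in cortex and 79.8 to 110 in striatum. The ranges overlapped for all 3 genes. The call of Sdhd was lost with total counts (-0.04, adjusted p = 0.104, edgeR).

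Complex III, with 66.7% of its members called against 77.7% of all genes, divided by role in the sign of its differences. Its 4 larger subunits were all called lower in striatum, by -0.14 to -0.25: cytochrome c1 (Cyc1), the Rieske iron-sulphur protein (Uqcrfs1) and the core proteins Uqcrc1 and Uqcrc2. Cyc1 ran from 98.8 to 113 CPM in cortex (median 104) and from 80.8 to 93.7 in striatum (median 87.9), without overlap (-0.25 ± 0.02, adjusted p = 4.66e-10, edgeR). Uqcrc2 ran from 155 to 175 (median 163) and from 137 to 154 CPM (median 149), also without overlap (-0.16 ± 0.02). The 5 small subunits were all above 0, and 2 of them passed. Uqcrb, which lies by the quinone site, ran from 37.5 to 46.0 CPM in cortex and 40.4 to 51.4 in striatum (0.15 ± 0.03), and Uqcr11 from 45.3 to 55.6 and 47.9 to 71.7 (0.15 ± 0.05). Both ranges overlapped between regions. Second matches were found for 43.5% of Uqcrb windows and 23.4% of Uqcr11 windows, so both values are uncertain. Uqcr10 and Uqcrq (0%) and Uqcrh (2.5%) were not called. The striatal maximum of Uqcr11 was that of wild-type library 22, and the rest of its group ran from 51.9 to 59.2 CPM. This division by role was drawn after the values were seen.

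Complex IV had 3 members called higher and 4 lower among 13, or 53.8% against 77.7% of all genes. Cox8a, a single-span subunit, was the lowest of all members at -0.25 ± 0.04 (adjusted p = 4.05e-06, edgeR), with 232 to 284 CPM in cortex (median 253) and 196 to 273 in striatum (median 216). Its striatal maximum, in wild-type library 20, stood alone, and the next was 228 CPM in that group. Cox5a, one of the matrix-side subunits, ran from 105 to 132 CPM in cortex and 93.2 to 116 in striatum (-0.15 ± 0.04). Cox7c was called higher by 0.23 ± 0.06 and Cox5b, the zinc-binding matrix subunit, by 0.17 ± 0.02. Second matches were found for 25.0% of Cox7c windows and 50.6% of Cox5b windows, so both values are uncertain. Cox5b ran from 87.4 to 97.1 CPM and from 95.3 to 117 CPM, and Cox7c from 38.0 to 52.7 and 43.6 to 74.3. Of the tissue forms, Cox6a2 differed by 0.13 ± 0.11, which was not called.

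Complex V had 4 members called higher and 3 lower among 17, with the lowest share called, 41.2% against 77.7% of all genes. Atp5l, subunit g of the membrane part, showed the largest difference of any member, 0.64 ± 0.06 (adjusted p = 1.06e-10, edgeR). It ran from 5.83 to 8.35 CPM in cortex (median 7.34) and from 9.53 to 13.3 in striatum (median 11.6), with no overlap. It is also a member whose windows mostly matched a second place, so its reads could not be assigned with certainty. Atp5k, subunit e, was called higher by 0.15 ± 0.03, with 49.2 to 60.3 CPM in cortex and 56.3 to 71.6 in striatum. Atp5d, the delta subunit of F1, fell by 0.19 (SE 0.03), with 132 to 161 and 113 to 136 CPM. Atp5o, the oligomycin sensitivity protein of the stalk, ran from 102 to 118 and from 99.4 to 112 CPM and was at -0.10 ± 0.02. Among the 3 genes for subunit c, Atp5g1 was called lower, by -0.08 ± 0.03, and Atp5g2 (0.11 ± 0.06) and Atp5g3 (0.04 ± 0.03) were not called.

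**Figure D3:**
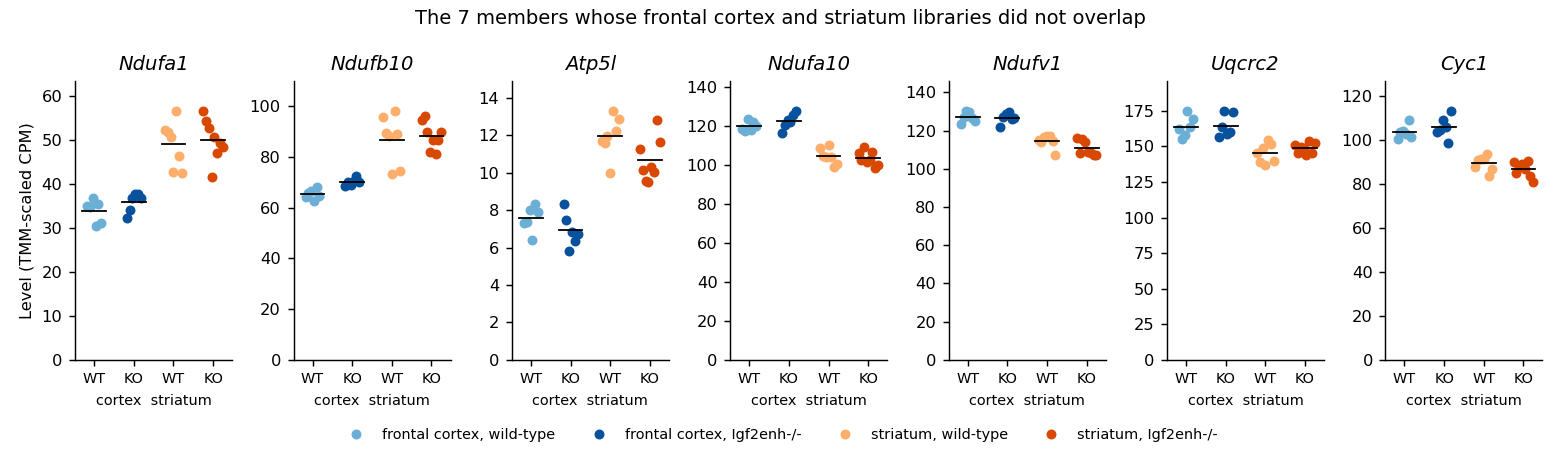
Level in every library (points; y axis in TMM-scaled CPM, starting at 0; black line, mean) of the 7 members whose cortical and striatal ranges did not overlap (WT, wild-type; KO, Igf2enh-/-). Ndufa1, Ndufb10 and Atp5l are higher in striatum, and Ndufa10, Ndufv1, Uqcrc2 and Cyc1 lower.

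These 7 members without overlap make up 8.97% of those tested, against 25.9% of all genes. Markers of 5 cell types had median differences larger than that of any member. All 8 medium spiny neuron markers tested were called higher in striatum, with a median of 5.08, and all 8 oligodendrocyte markers, with a median of 1.80. All 6 cortical projection neuron markers were called lower, with a median of -2.32, and all 7 meningeal fibroblast markers, with a median of -1.04. Of the choroid plexus markers 2 were tested and 1 was called higher, with a median of 0.95. Summed medium spiny neuron markers ran from 177.7 to 259.4 CPM in cortex and from 3825.9 to 10564.9 in striatum, and the oligodendrocyte sum from 971.3 to 2080.1 and 4801.3 to 10495.4. The part of cell makeup in the members' differences was not tested. Striatal wild-type library 20 had the lowest medium spiny neuron sum and the highest oligodendrocyte and cortical projection neuron sums of the region, wild-type library 22 the lowest cortical projection neuron sum, and Igf2enh-/- library 15 the highest choroid plexus and meningeal fibroblast sums. Without these 3 libraries 48 members were again called, 25 higher and 23 lower. Cytosolic ribosomal protein genes rose in striatum, 64 of 77 called higher and 3 lower. With wild-type libraries alone 34 members were called, 23 higher and 11 lower, and with Igf2enh-/- libraries alone 34, 16 higher and 18 lower. Both are 43.6% of the members, against 65.4% of all genes in the first fit and 68% in the second. In those fits, Cox5a and Atp5o were not called with wild-type libraries, nor Sdha, Sdhd, Uqcr11 and Atp5k with Igf2enh-/- libraries.

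Other genes that the chain depends on were set against the same 77.7% of all genes called between regions. Of the subunits encoded by mitochondrial DNA, 7 of 13 passed the filter, and 6 of these 7 were called higher in striatum, with a median of 0.30. The largest differences were those of mt-Nd4 (0.41 ± 0.04), mt-Cytb (0.38 ± 0.04) and mt-Nd2 (0.37 ± 0.04). Of the windows of mt-Nd4 61.6% had a second match in the genome, so its value is uncertain. For mt-Nd6, the only one on the other strand, the value was -0.08 ± 0.05, not called. The remaining 6, mt-Nd3, mt-Nd4l, mt-Co2, mt-Co3, mt-Atp6 and mt-Atp8, were at or near 0 counts, and 98.9% to 100% of their windows had a second match in the genome. Cytochrome c (Cycs), the carrier between complexes III and IV, differed by 0.02 ± 0.04, not called. Enzymes of the tricarboxylic acid cycle, which feed NADH and succinate to the chain, were called lower for 11 of 16 and higher for 3, together 87.5%. The strongest were Idh3a (-0.45 ± 0.02), Pdha1 (-0.31 ± 0.02) and citrate synthase, Cs (-0.20 ± 0.02).

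Assembly factors were called in both directions, 13 higher and 16 lower of 45 (64.4%, below the share of all genes), with a median near 0. Cox20, which holds mt-Co2 during assembly of complex IV, was higher by 0.71 ± 0.05, and Cmc2, another complex IV factor, lower by -0.67 ± 0.06. Acad9, which serves complex I assembly, was at -0.31 ± 0.03. Of 14 regulators 8 were called higher and 3 lower, together 78.6%, which is near the share of all genes. The GABP subunits Gabpb2 (0.85 ± 0.05) and Gabpa (0.60 ± 0.04) and the coactivator Ppargc1b (0.59 ± 0.07) were the strongest, and Nrf1 was at 0.21 ± 0.03. Ppargc1a, the coactivator PGC-1 alpha, was at -0.18 and called lower.

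In frontal cortex, 0 of the 78 members were called between Igf2enh-/- and wild-type mice by edgeR's quasi-likelihood test, in which 0.38% of 13936 genes were called. The likelihood ratio test, DESeq2 and limma-voom called 0 as well. At an unadjusted p under 0.05, 7 members were higher and 0 lower, together 8.97%, against 13.5% of all genes (6.87% higher and 6.6% lower). Most fold changes were above 0, 63 of 78, with a median of 0.03 against 0.00 over all genes. The 95% intervals of 76 members lay within 0.25 of 0 on the log2 scale, and the widest bound was -0.36, that of Cox6a2.

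The smallest p belonged to Uqcrh, the hinge protein of complex III, which ran from 89.0 to 101 CPM in wild-type (median 98.6, n = 6) and from 101 to 114 CPM in the Igf2enh-/- libraries (median 106, n = 6). The difference was 0.14 ± 0.04 (adjusted p = 0.158, edgeR), and the ranges touched. Ndufb10 ran from 62.6 to 68.0 CPM in wild-type (median 65.1) and from 68.7 to 72.7 CPM in the Igf2enh-/- libraries (median 70.1), a difference of 0.10 ± 0.03 (adjusted p = 0.159, edgeR). It was the 1 member of 78 without overlap between genotypes, 1.28% against 1.31% of all genes. The next were 3 further accessory subunits of complex I. Ndufb7 ran from 31.4 to 36.6 and 36.1 to 39.6 CPM (0.13 ± 0.04, adjusted p = 0.204, edgeR), Ndufb2 from 22.9 to 27.0 and 26.2 to 29.5 (0.13 ± 0.05, adjusted p = 0.282, edgeR), and Ndufa12 from 30.6 to 35.2 and 34.1 to 41.4 (0.13 ± 0.05, adjusted p = 0.290, edgeR). In each of these the lower end of the Igf2enh-/- range fell inside the wild-type range.

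By complex, the cortical medians were 0.03 for complex I (30 of 35 above 0), 0.02 for complex II (3 of 4), 0.04 for complex III (8 of 9), 0.02 for complex IV (8 of 13) and 0.04 for complex V (14 of 17). The 7 mitochondrially encoded genes tested were all above 0 with a median of 0.10, and 4 had an unadjusted p under 0.05, with mt-Nd2 at 0.15 ± 0.05 (adjusted p = 0.227, edgeR). Of the 77 cytosolic ribosomal protein genes 64 were above 0, with a median of 0.05. Meningeal fibroblast markers were above 0 for 9 of 10, with Igf2 alone called and sums of 104.3 to 235.5 CPM in wild-type and 167.6 to 317.4 in Igf2enh-/- mice. These sums include Igf2, the gene next to the deleted enhancer. Oligodendrocyte markers were below 0 for 8 of 8, none called, with sums of 1560.5 to 2080.1 and 971.3 to 2077.2 CPM. The part of these lists in the members' values was not tested. Among genes around the chain, none was called in cortex. Assembly factors were above 0 for 33 of 46 (smallest p, Cox20, 0.17 ± 0.06), tricarboxylic acid cycle enzymes for 14 of 16 (Idh3b, 0.05 ± 0.02) and regulators for 6 of 14 (Pprc1, -0.14 ± 0.05).

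In striatum, 0 of 78 members were called by edgeR's quasi-likelihood test, in which 0.036% of 13875 genes were called, and 0 by the likelihood ratio test, DESeq2 and limma-voom. At an unadjusted p under 0.05, 2 were higher and 2 lower, 5.13% against 10% of all genes (4.94% higher and 5.1% lower). Fold changes were above 0 for 21 and below 0 for 57, with a median of -0.02 against 0.00 over all genes. This balance changed with the libraries and covariates used: without wild-type library 22 it was 40 above and 38 below (median 0.00), and with RNA concentration as a covariate 50 above and 28 below (median 0.01). The 95% intervals of 74 members lay within 0.25 of 0, and the widest bound was -0.47, again that of Cox6a2.

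Uqcrb, with a second match in 43.5% of its windows, had the smallest striatal p, with 40.4 to 48.1 CPM in wild-type (median 44.6, n = 7) and 43.7 to 51.4 CPM in the Igf2enh-/- libraries (median 46.9, n = 8), a difference of 0.09 ± 0.04 (adjusted p = 0.427, edgeR). Sdhd followed, with 53.3 to 58.1 and 54.8 to 61.6 CPM (0.07 ± 0.03, adjusted p = 0.438, edgeR). For both genes the ranges of the genotypes overlapped in part. Ndufb9 ran from 109 to 137 and 109 to 121 CPM (-0.11 ± 0.05, adjusted p = 0.462, edgeR), and its wild-type maximum was library 22. Atp5l ran from 10.0 to 13.3 and 9.53 to 12.8 CPM (-0.16 ± 0.08, adjusted p = 0.491, edgeR). For 0 of 78 members were the genotypes without overlap, against 0.231% of all genes.

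**Figure D4:**
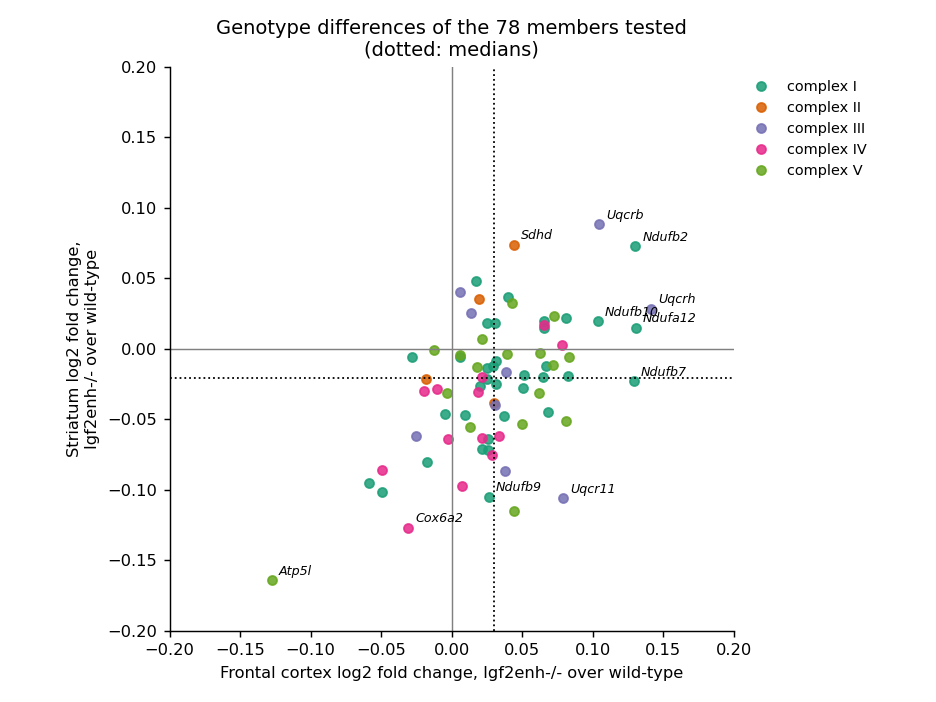
Log2 fold change of Igf2enh-/- over wild-type in frontal cortex (x axis) and striatum (y axis) for the 78 members tested, coloured by complex; dotted lines are the medians, 0.03 and -0.02. The points lie mainly right of 0 and below 0, and no member was called in either region.

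Complex IV had the lowest striatal median, -0.06, with 2 of 13 members above 0. Complex I was at -0.02 (10 of 35 above 0), complex II at 0.01 (2 of 4), complex III at -0.02 (4 of 9) and complex V at -0.01 (3 of 17). The mitochondrially encoded genes did not share this sign: 6 of 7 were above 0, with a median of 0.07 and none called. Of the 77 cytosolic ribosomal protein genes 73 were below 0 (median -0.06, none called), and oligodendrocyte markers were below 0 for 8 of 8 with a median of -0.31, none called. Oligodendrocyte sums ran from 4801.3 to 10495.4 CPM in wild-type and 4966.9 to 6414.7 in Igf2enh-/- libraries. Cortical projection neuron markers, which should be low in striatum, summed to 65.2 to 1284.6 CPM in wild-type and 183.9 to 961.0 in Igf2enh-/- libraries. Their part in the members' values was not tested. None of the other genes around the chain was called. Assembly factors were above 0 for 21 of 45 (smallest p, Cox19, -0.13 ± 0.05), tricarboxylic acid cycle enzymes for 11 of 16 (Sucla2, 0.07 ± 0.03) and regulators for 7 of 14 (Gabpb1, 0.11 ± 0.05).

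Whether the genotype difference itself differed between regions was tested with an interaction term. It called 0 of the 13414 genes (0%) and 0 of 78 members by edgeR's quasi-likelihood test, and 0 by the other 3 tests. At an unadjusted p under 0.05 it gave 3 members, 3.85% against 3.02% of all genes. The term was below 0 for 71 of 78 members, with a median of -0.06 against -0.01 over all genes, and every member of complex IV had this sign. The 3 were Ndufb7 (-0.15 ± 0.06), Uqcr11 (-0.19 ± 0.08) and Atp5k (-0.13 ± 0.06). In each, the cortical value was above 0 and the striatal one below. Without striatal libraries 15, 20 and 22 the term was below 0 for 58 of 78. Of the cytosolic ribosomal protein genes it was below 0 for 74 of 77.

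Some libraries held the highest or lowest level of many members at once. In striatum, library 22 (wild-type) had the highest level of 50 of the 78 members, and its median member stood 0.13 above the median library of the region. Library 26 (wild-type) had the lowest level of 38 members, at -0.11. Both belong to the same genotype and sex. Library 22 also had the lowest RNA concentration of all, 61.2 ng/µl, the smallest cortical projection neuron sum and a medium spiny neuron sum of 10440.7 CPM, the highest of its group. Library 26 had 466.4 ng/µl and a 260/230 ratio of 1.84, the lowest of all. In frontal cortex, Igf2enh-/- library 11 was highest for 37 members (0.08) and wild-type library 8 lowest for 30 (-0.10). Library 1 (Igf2enh-/-) was lowest for 19 members and at the same time highest for 54 of 77 cytosolic ribosomal protein genes. The part of RNA yield or purity in these displacements was not tested. Without libraries 8 and 11 the cortical median fell to 0.01, with 47 of 78 members above 0.

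**Figure D5:**
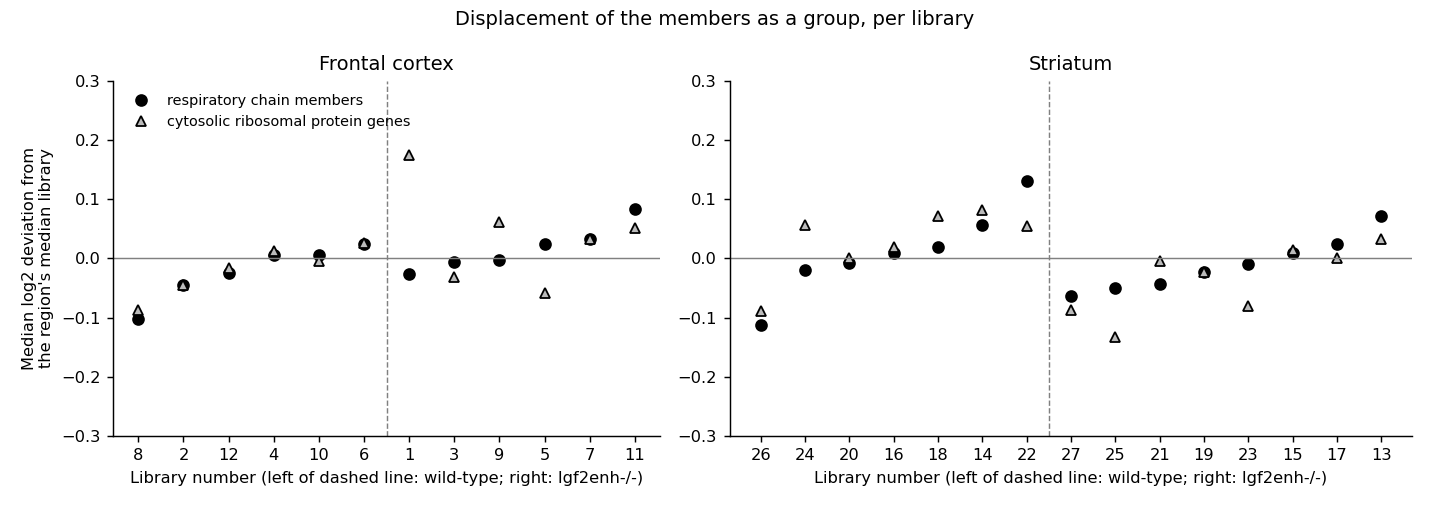
Median log2 deviation of the 78 members (circles) and of 77 cytosolic ribosomal protein genes (triangles) from the median library of the region, for every library, ordered within genotype by the members' value. Libraries 22 and 26, both wild-type, mark the extremes of the members in striatum, and libraries 11 and 8 in frontal cortex.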

How the data were processed

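RNA depleted of ribosomal RNA was sequenced as 75-base single-end reads. Per the labels and the study's methods, the authors used Trim Galore 0.5.0 for trimming and STAR for alignment to GRCm38 with GENCODE gene definitions, and deposited raw counts per gene, with no filter. The strand setting is not given in the sources used here. The tables held 0 columns of other series.

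A gene name table gave symbols for 32688 of 52636 identifiers, and 2659 were updated from RefSeq (GRCm38.p6). Exon lengths came from GENCODE vM1. Members, lists and tests were chosen with earlier results of these data known.

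Genes under 1 CPM in any library compared were left out, and TMM scaling was applied. Quasi-likelihood models from edgeR 4.0.16, run in R 4.3.3, were fitted with sex and genotype in each region, and with sex, genotype and region over all 27 libraries, an interaction term being added to test the difference between regions. P-values were adjusted by Benjamini-Hochberg over all genes tested. Standard errors are the size of the log2 fold change divided by the root of F. Total counts per library were 23686945 to 33926904. P-values measure only the spread between these libraries. Alternatives included limma-voom from limma 3.58.1, DESeq2 1.42.0 and the likelihood ratio test in edgeR, besides other filters, scalings and covariates, and leaving out libraries. The fits were also run on counts simulated gene by gene from the same kind of model. Those counts hold no shift shared by many members of a library, so they do not show how the fits deal with one.

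Members were named if called for genotype, among the 5 of smallest genotype p in a region, among the 2 highest and 2 lowest called region differences of a complex, of smallest interaction p, a tissue isoform, under the filter, or highest or lowest per length in a complex. Of each other list, those called or up to 3 of smallest p were eligible. Others were chosen after their values were seen. The values of 1 member are not reported here.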

Additional observations from a re-analysis of the deposited data

Results flagged for a closer look

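In each group of 6 to 8 libraries, the highest or lowest library was set against the spread of the others by Dixon's test at the 95% level. Of 184 such groups of values, over summed lists and named members, 12 passed, and chance alone gives about 1 in 20. No member's genotype difference differed between regions at an adjusted p under 0.05.

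Among members, striatal wild-type library 22 stood above the other 6 of its group for Ndufb2, with 30.2 CPM against 26.3 to 27.6, and for Uqcr11, with 71.7 CPM against 51.9 to 59.2. Library 26 of that group was low for Ndufv1, with 107.2 CPM against 113.7 to 117.0. Library 20 of that group was high for Cox8a, with 273.1 CPM against 197.5 to 228.1. Striatal Igf2enh-/- library 19 was high for Sdha, with 348.3 CPM against 314.2 to 329.0. In frontal cortex, Igf2enh-/- library 9 was low for Cox7c, with 38.0 CPM against 47.0 to 52.2, and wild-type library 8 was low for Cox5a, with 104.8 CPM against 115.7 to 118.7.

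Among marker lists, striatal Igf2enh-/- library 15 had a choroid plexus sum of 4630.4 CPM against 180.1 to 362.5 in the rest of its group, and a meningeal fibroblast sum of 316.6 CPM against 74.7 to 93.0. Frontal cortex Igf2enh-/- library 1 had the lowest sums of choroid plexus markers, 171.6 CPM against 233.3 to 264.9, and of medium spiny neuron markers, 177.7 CPM against 227.6 to 247.5. Frontal cortex wild-type library 10 had a microglia sum of 367.6 CPM against 327.4 to 342.3.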

How the results depend on the processing

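No paired analysis was possible because the library numbers are unique and the labels do not tie libraries to mice or litters. The genotype and interaction tests called 0 members under every alternative run, leaving out each library included. Calls over all genes varied: 53 in frontal cortex became 8 to 99 on leaving out 1 library, 16 without libraries 8 and 11, 232 with the likelihood ratio test, 242 with DESeq2 and 459 without a filter, and 5 in striatum became 3 to 8 on leaving out 1 library, 10 without a filter, 13 with filterByExpr or without libraries 15, 20 and 22, 56 with the likelihood ratio test and 112 with DESeq2. Between regions, leaving out 1 library gave 46 to 49 members called and the other alternatives 34 to 51, the lowest with 1 genotype alone. The share of members called was below that of all genes in each of these except without a filter (53.6% against 41.8%). Leaving out 1 library put the median genotype difference at 0.02 to 0.04 in frontal cortex and -0.05 to 0.00 in striatum, and the median region difference at 0.02 to 0.05. All medians moved by less than the SD of library medians within groups, 0.04 in frontal cortex, 0.06 in striatum and 0.05 over both. These SDs are larger than the medians of the main fits (0.03, -0.02 and 0.03), so a change of sign could stay within them and this does not show stability. The striatal median nevertheless changed sign without library 22, without libraries 15, 20 and 22 (0.01, 41 of 78 members above 0) and with RNA concentration as a covariate (0.01). The region median was 0.07 with wild-type and -0.01 with Igf2enh-/- libraries alone. The members named by smallest p or by the largest called region differences of a complex kept their sign in all alternatives. Of these, 6 lost a region call in at least 1, as the report gives, Sdhd also without a filter (adjusted p = 0.0596, edgeR). Uqcrc1, Uqcrfs1 and Atp5g1, also named as called between regions, were not followed singly in the alternatives. Leaving out the highest and lowest libraries together (22 and 26, or 8 and 11) was chosen after seeing the data and gave medians of -0.02 in striatum and 0.01 in frontal cortex. Of the 8 members under the filter, low counts limit what could be detected, since 1 CPM stood for 23.7 to 33.9 counts.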
